A study of Bos indicus with 5 samples.

Results

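The genes described are the ligands and receptors of the tumor necrosis factor (TNF) superfamily, their intracellular adaptors and the TNFAIP genes. The TNFAIP genes are named for induction by TNF or for likeness to TNFAIP8. All were measured by RNA-Seq in the ampulla of the cow oviduct. Members were taken by symbol, which kept 57 of the 24616 genes in the deposited table. They comprise 18 ligands, 8 receptors of the death domain group, 16 other receptors, 8 adaptors and 7 TNFAIP genes. A symbol was shared by 2 entries of TNFSF13B, which are named by their Ensembl identifiers.

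The ampulla, the wider stretch of the oviduct toward the ovarian end, was sampled: tissue covering its full thickness was taken on day 4 after induced ovulation, on the side that bore the corpus luteum. All animals were multiparous, non-lactating Nelore (Bos indicus) cows, and all were presynchronized with a GnRH agonist and prostaglandin F2 alpha analog. All then received a progesterone device with estradiol benzoate, prostaglandin at device removal and again some hours later, and GnRH agonist to induce ovulation. For cows with a large follicle and a large corpus luteum (LF/LCL, 2 libraries) the device came out 42 h before GnRH, and these cows also had prostaglandin when it was inserted. For cows with a small follicle and a small corpus luteum (SF/SCL, 3 libraries) it came out 30 h before GnRH. Each library came from a different cow, picked as top or bottom ranked for follicle, corpus luteum and hormone measures, so that the libraries represent the extremes of each group, and another LF/LCL library was discarded by the authors for few reads.

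Ligands of this superfamily are mostly membrane proteins that assemble as trimers and can be shed, and they act on neighboring cells that carry the matching receptor. Several receptors with a death domain recruit TRADD or FADD and can lead to caspase activation. Many of the other receptors bind TRAF proteins and lead to NF-kappaB and JNK signaling, while some are decoys. The ligands are made largely by T cells, NK cells and antigen-presenting cells, while several receptors are also found on epithelium, and in the cow oviduct TNF is known for its action on prostaglandin output.

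The libraries held from 13418278 to 19592174 reads assigned to genes. Values are normalized reads, that is reads divided by 1 size factor per library, and not divided by transcript length, so a value is compared only with that of the same gene in other libraries. Secretory markers were abundant in all libraries, with summed values from 145116 to 172568. Most of each sum was OVGP1, with 117179 to 147247 normalized reads. OVGP1 and KRT18 overlapped between the groups, whereas PAX8, EPCAM and KRT8 were higher in both LF/LCL libraries. Markers of smooth muscle and of ciliated cells also moved with the groups. The 5 smooth muscle markers found summed to 44788 and 89035 normalized reads in LF/LCL and to between 10921 and 30794 in SF/SCL, and the 6 ciliated cell markers to 35087 and 48843 in LF/LCL and to between 51159.9 and 55919 in SF/SCL. With limma, all 5 smooth muscle markers and 2 of 5 secretory markers had an unadjusted p under 0.05, with LF/LCL higher. Among the ciliated cell markers, 3 of 6 had such a p, with SF/SCL higher. Of all genes tested, 5.64% had such a p with LF/LCL higher and 5.86% with SF/SCL higher. The part of these tissues in the values of the members was not tested.

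Of the 57 members, 46 had a mean value over 5 and were tested with limma on log2(value + 1), and 56 had at least 1 read. By their mean, 2 members had at least 1000 normalized reads, 38 had from 15 to 1000 and 17 had fewer than 15. No member had an adjusted p under 0.05 with limma (0 of 46, and 0% of the 15815 genes tested), the smallest being 0.186, and the edgeR quasi-likelihood test with TMM also called 0 members. By its unadjusted p, 6 members passed 0.05 with limma, against 11.5% of all genes tested, and 5 members with edgeR, against 11.6%. Of these 6, the means of TNFSF10 and TNFRSF10A were higher in LF/LCL, a direction in which 5.64% of all genes passed, and those of TNFSF9, TNFRSF18, TNFAIP8 and TRAF3 were higher in SF/SCL, where 5.86% passed. The share of members that passed was thus close to that of all genes. DESeq2 called 1 member with an adjusted p under 0.05, TNFSF9, where it called 2.89% of all genes.

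The groups did not overlap in 13 of the 46 tested members, against 30.1% of all genes tested. LF/LCL was the higher group in 7 of them (15% of all genes) and SF/SCL in 6 (15.1% of all genes). The median log2 fold change of the tested members, LF/LCL over SF/SCL, was 0.09, against 0.01 over all genes tested. The log2 fold change was above 0 in 32 of the 46 members, against 50.8% of all genes. The median ran from 0.06 without SF/SCL replicate 2 to 0.19 without LF/LCL replicate 2 and 0.19 without SF/SCL replicate 3. Without LF/LCL replicate 1 only 2 members had an unadjusted p under 0.05 with limma, TNFSF9 and LTB, against 7.8% of all genes in the same fit. Without SF/SCL replicate 1 there were 3, TNFSF9, TNFSF10 and TNFRSF10A, against 10.1% of all genes. There were 4 without LF/LCL replicate 2 (9.87% of all genes) and 9 without SF/SCL replicate 3 (9.47% of all genes).

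**Figure D1:**
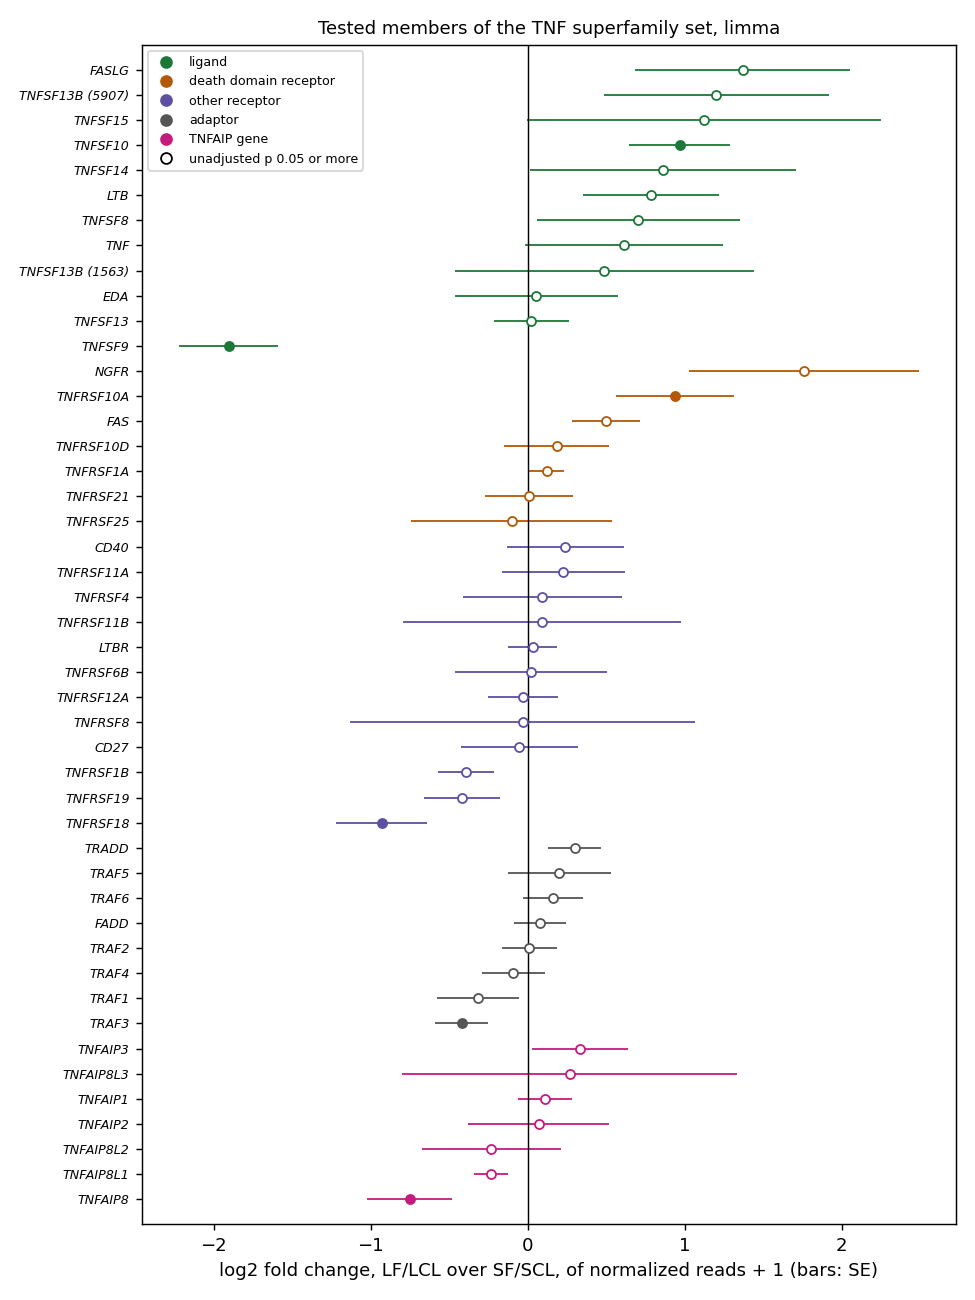
Log2 fold change of normalized reads + 1, LF/LCL over SF/SCL, for the 46 tested members, ordered within each role; bars are the standard error from limma, and filled points have an unadjusted p under 0.05. TNFSF9 lies at -1.90, apart from the other 11 tested ligands, which lie above 0, although TNFSF13 falls below 0 with scaling by library size.

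Among the ligands, the costimulatory ligand TNFSF9 (4-1BB ligand), which antigen-presenting cells display to activated T cells, had the smallest p and the fitted log2 fold change of largest size among the 12 tested. TNFSF9 had 37.5 and 62.9 normalized reads in the LF/LCL cows, against 158, 182 and 219 in the SF/SCL cows. Every SF/SCL library thus lay above both LF/LCL libraries. The means were 50.2 ± 17.95 (SD, n = 2) and 186 ± 30.7 (SD, n = 3), a 3.71-fold higher mean in SF/SCL. Its log2 fold change was -1.90 ± 0.32 (SE), with an unadjusted p of 0.000871 and an adjusted p of 0.186 by limma. DESeq2 gave an adjusted p of 5.64e-05. Across the limma fits that each left out a library the log2 fold change of TNFSF9 ran from -2.27 to -1.54, and its unadjusted p stayed between 0.000914 and 0.00434. The receptor of this ligand, TNFRSF9, was near the limit of detection, with 2 reads in each LF/LCL library, while SF/SCL replicates 1, 2 and 3 had 2, 3 and 14 reads.

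TNFSF10 (TRAIL), a ligand that can trigger apoptosis through its death domain receptors, showed the opposite order. It had 640.3 and 663 normalized reads in the LF/LCL cows, against 377, 213.7 and 454 in the SF/SCL cows. Both LF/LCL libraries were above all SF/SCL libraries, and the SF/SCL cows differed among themselves by more than the LF/LCL cows did. The log2 fold change of TNFSF10 was 0.97 ± 0.32 (SE), with an unadjusted p of 0.0239 and an adjusted p of 0.363 by limma, and DESeq2 gave an adjusted p of 0.152. Leaving out either LF/LCL library took the unadjusted limma p over 0.05, to at most 0.0874.

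FASLG, the Fas ligand of cytotoxic T and NK cells, had 29.3 and 35.8 normalized reads in the LF/LCL cows, against 5.20, 24.1 and 12.9 in the SF/SCL cows. These groups did not overlap, although SF/SCL replicate 2 came close to LF/LCL. Its log2 fold change was 1.37 ± 0.68 (SE), with an unadjusted p of 0.091 and an adjusted p of 0.504 by limma. TNFSF13 (APRIL), a B cell survival factor, had 171 and 138 normalized reads in the LF/LCL cows, against 125, 167 and 166 in the SF/SCL cows, so that the groups overlapped, with a log2 fold change of 0.02 ± 0.24 (SE) that turned below 0 when values were scaled by library size.

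The other 8 tested ligand entries had higher means in LF/LCL but none had an unadjusted p under 0.05 with limma. LTB, a subunit of the lymphotoxin heterotrimer, had a mean of 118 ± 55.3 (SD, n = 2) in LF/LCL and of 66.4 ± 23.0 (SD, n = 3) in SF/SCL. TNF itself had a mean of 11.8 ± 5.15 in LF/LCL and 7.33 ± 2.69 in SF/SCL. TNFSF8, TNFSF14 and TNFSF15 had LF/LCL means of 34.5, 14.2 and 7.67 and SF/SCL means of 22.6, 8.59 and 4.15, and each overlapped between the groups. The TNFSF13B (BAFF) entry ENSBTAG00000045907 had means of 9.33 in LF/LCL and 3.58 in SF/SCL without overlap, whereas the entry ENSBTAG00000011563 ran from 8.21 to 60.98 over the LF/LCL libraries and overlapped with SF/SCL. As only uniquely mapped reads were counted, reads of 2 such entries may be split or lost, and both are uncertain. EDA, the ectodysplasin ligand, had means of 22.6 and 20.04.

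**Figure D2:**
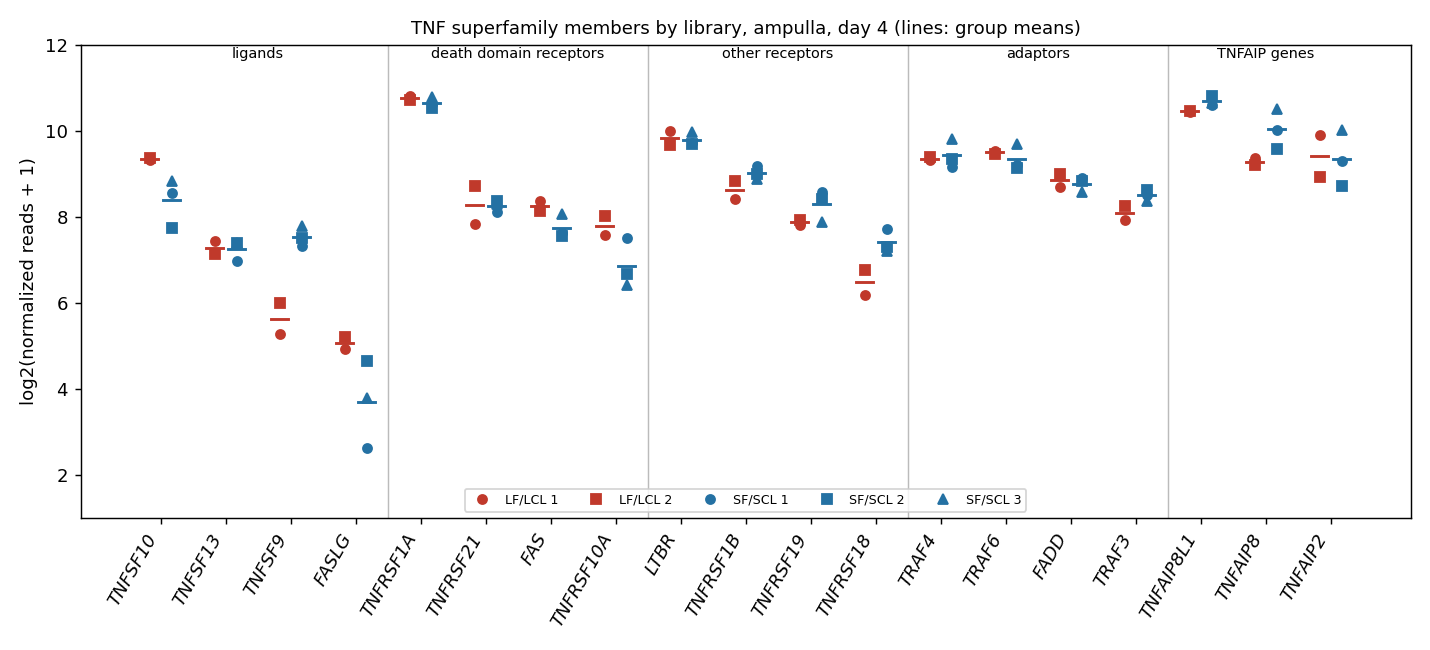
Values of 19 members in each of the 5 libraries, as log2 of normalized reads + 1, grouped by role; red points are LF/LCL, blue points are SF/SCL, and lines are group means of the log values. TNFSF9 and TNFRSF18 lie higher in all SF/SCL libraries, and TNFSF10, FASLG and TNFRSF10A higher in both LF/LCL libraries.

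Of the 7 tested receptors of the death domain group, 1 had an unadjusted p under 0.05 with limma, against 11.5% of all genes tested. The gene listed as TNFRSF10A, a receptor of TNFSF10, had 189 and 258 normalized reads in the LF/LCL cows, against 179.9, 100.3 and 83.7 in the SF/SCL cows. The lower LF/LCL library was only slightly above SF/SCL replicate 1. Its log2 fold change was 0.94 ± 0.37 (SE), with an unadjusted p of 0.0447 and an adjusted p of 0.421 by limma, and the unadjusted p was under 0.05 in only 1 of the 5 fits that left out a library. It was over 0.05 with edgeR (0.0559 with TMM) and with scaling by library size (0.0501). TNFRSF10D, listed as another TRAIL receptor, was placed in the death domain group by its symbol. Its values overlapped between the cow groups, with means of 248 ± 105 in LF/LCL and 212 ± 47.7 in SF/SCL.

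FAS, the receptor of FASLG, had 328 and 279 normalized reads in the LF/LCL cows, against 197, 187 and 266 in the SF/SCL cows. Its groups did not overlap, and the log2 fold change was 0.50 ± 0.22 (SE), with an unadjusted p of 0.0602 and an adjusted p of 0.46 by limma. NGFR, the p75 neurotrophin receptor, which is known from nerves and mesenchymal cells, had few reads, with means of 21.8 ± 7.55 in LF/LCL and 6.34 ± 3.63 in SF/SCL. Its libraries did not overlap either, and its log2 fold change was 1.76 ± 0.73 (SE), with an unadjusted p of 0.0523 by limma.

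TNFRSF1A, the main TNF receptor of most cell types, was similar across libraries. It had 1794 and 1679 normalized reads in the LF/LCL cows, against 1566, 1484 and 1751 in the SF/SCL cows, and the log2 fold change was 0.12 ± 0.11 (SE). TNFRSF21 (DR6), a death domain receptor without a TNF family ligand of its own, had 225 and 421 in the LF/LCL cows, against 278, 328 and 314 in the SF/SCL cows. The highest and the lowest value of TNFRSF21 were thus both in LF/LCL, and its log2 fold change of 0.01 ± 0.28 (SE) turned below 0 with scaling by library size. TNFRSF25 (DR3) had means of 39.9 ± 9.90 and 49.3 ± 29.9 normalized reads.

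Among the 12 other receptors tested, TNFRSF18 (GITR), a costimulatory receptor of regulatory and activated T cells, had the smallest p. It had 71.5 and 108 normalized reads in the LF/LCL cows, against 208, 157 and 147 in the SF/SCL cows, so that all SF/SCL libraries were higher. The log2 fold change of TNFRSF18 was -0.93 ± 0.29 (SE), with an unadjusted p of 0.018 and an adjusted p of 0.346 by limma, and its unadjusted p went to at most 0.106 when LF/LCL replicate 1 or SF/SCL replicate 1 was left out. The receptors TNFRSF4 (OX40) and CD27, which are also known from T cells, overlapped between the groups, with log2 fold changes of 0.09 ± 0.51 and -0.05 ± 0.37 (SE). For TNFRSF4 the mean of normalized reads had the opposite order, 92.2 in LF/LCL against 95.7 in SF/SCL.

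TNFRSF1B, the TNF receptor found mainly on immune and endothelial cells, had 341 and 454 normalized reads in the LF/LCL cows, against 580.1, 511 and 468 in the SF/SCL cows. Its groups stood apart by a small margin, with a log2 fold change of -0.39 ± 0.18 (SE) and an unadjusted p of 0.0672 by limma. TNFRSF19 (TROY), a receptor known from epithelial progenitors, had 223 and 244 in the LF/LCL cows, against 381, 339.6 and 234 in the SF/SCL cows. SF/SCL replicate 3 fell between the LF/LCL libraries, and the log2 fold change was -0.42 ± 0.24 (SE).

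LTBR, the lymphotoxin beta receptor of epithelial and stromal cells, had 1014 and 806 normalized reads in the LF/LCL cows, against 839, 819.9 and 1006 in the SF/SCL cows, which overlapped, and its log2 fold change of 0.03 ± 0.15 (SE) turned to a value below 0 with scaling by library size. The least variable tested member was TNFRSF12A (Fn14, the TWEAK receptor), with means of 108 ± 0.322 in LF/LCL and 109.9 ± 4.23 in SF/SCL. Its coefficient of variation was 2.96% over the 5 libraries. CD40, TNFRSF11A (RANK) and the decoy receptors TNFRSF11B and TNFRSF6B had log2 fold changes between 0.02 and 0.24, each smaller than its SE. For TNFRSF11B and TNFRSF6B the means of normalized reads had the opposite order, with 8.18 and 37.8 in LF/LCL against 9.80 and 38.8 in SF/SCL.

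Of the 8 adaptors, all tested, 1 had an unadjusted p under 0.05 with limma, against 11.5% of all genes tested. Their coefficients of variation over the 5 libraries ran from 11.2% to 25.2%, against 13.5% to 89.9% for the tested ligands, several of which had few reads. TRAF3, an inhibitor of the noncanonical NF-kappaB pathway, had 240.4 and 303 normalized reads in the LF/LCL cows, against 364, 391.7 and 332 in the SF/SCL cows. It was higher in every SF/SCL library, with a log2 fold change of -0.42 ± 0.17 (SE), an unadjusted p of 0.0485 and an adjusted p of 0.429 by limma. That unadjusted p was over 0.05 when LF/LCL replicate 1, SF/SCL replicate 1 or SF/SCL replicate 2 was left out. It was also over 0.05 with edgeR (0.0546 with TMM), DESeq2 (0.0583), limma-voom (0.0563) and limma without a filter (0.0518). TRADD, the adaptor of TNFRSF1A, had means of 254 ± 1.32 in LF/LCL and 206 ± 16.9 in SF/SCL without overlap, and its unadjusted p was 0.123 by limma.

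TRAF4 had 636 and 665 normalized reads in the LF/LCL cows, against 569.8, 651 and 894 in the SF/SCL cows. TRAF6, which also serves Toll-like and interleukin 1 receptors, had 740.0 and 705 in the LF/LCL cows, against 585, 560.3 and 822 in the SF/SCL cows. FADD, the adaptor that links death receptors to caspase 8, had 415 and 508 in the LF/LCL cows, against 475, 452 and 381 in the SF/SCL cows. All 3 overlapped between the groups, with log2 fold changes of -0.09, 0.16 and 0.08. TRAF1, TRAF2 and TRAF5 overlapped as well.

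The TNFAIP genes were named for their response to TNF or for likeness to TNFAIP8 (TNFAIP8L1, TNFAIP8L2 and TNFAIP8L3), and differ in function. TNFAIP8, a regulator of apoptosis, had 661 and 585 normalized reads in the LF/LCL cows, against 1032, 764 and 1455 in the SF/SCL cows. All SF/SCL libraries were higher, although SF/SCL replicate 2 lay nearer to LF/LCL than to SF/SCL replicate 3. The log2 fold change of TNFAIP8 was -0.75 ± 0.27 (SE), with an unadjusted p of 0.0319 and an adjusted p of 0.387 by limma, and it had an unadjusted p under 0.05 in 2 of the 5 fits that left out a library.

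Its relative TNFAIP8L1 had 1384 and 1411 normalized reads in the LF/LCL cows, against 1552, 1792 and 1586 in the SF/SCL cows. These groups did not overlap either, with a log2 fold change of -0.23 ± 0.11 (SE) and an unadjusted p of 0.0736 by limma. TNFAIP2 had 951 and 485 in the LF/LCL cows, against 628, 417 and 1033 in the SF/SCL cows, so that it varied within both groups by more than it differed between them. TNFAIP3 (A20), the inducible brake of NF-kappaB, had means of 168 ± 26.8 and 136 ± 42.6, and its log2 fold change was 0.34 ± 0.31 (SE).

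The 11 members with a mean of 5 or less were not tested, and comprise 6 ligands, 4 other receptors and EDAR. EDA2R had 0 of 78245436 reads, which allows up to 0.0383 CPM (counts scaled to a common library total) by a floor of 3 reads. The remaining 10 had from 3 to 24 reads in all libraries together. Among them CD70, the ligand of CD27, had no read in either LF/LCL library, while SF/SCL replicates 1, 2 and 3 had 1, 18 and 5 reads. TNFSF18, the ligand of TNFRSF18, likewise had no read in LF/LCL and 0, 15 and 8 reads in SF/SCL. The reads were pooled over each group, with 3 reads allowed in LF/LCL and the SF/SCL reads taken as counted. SF/SCL over LF/LCL then came to 4.87 (CD70) and 4.66 (TNFSF18). Most of the reads of CD70 came from SF/SCL replicate 2. SF/SCL replicate 1 had no read of TNFSF18, so that the groups overlapped for this gene. These ratios allow for counting error in LF/LCL only. They leave out that of SF/SCL and the spread between cows, and are not lower bounds.

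**Figure D3:**
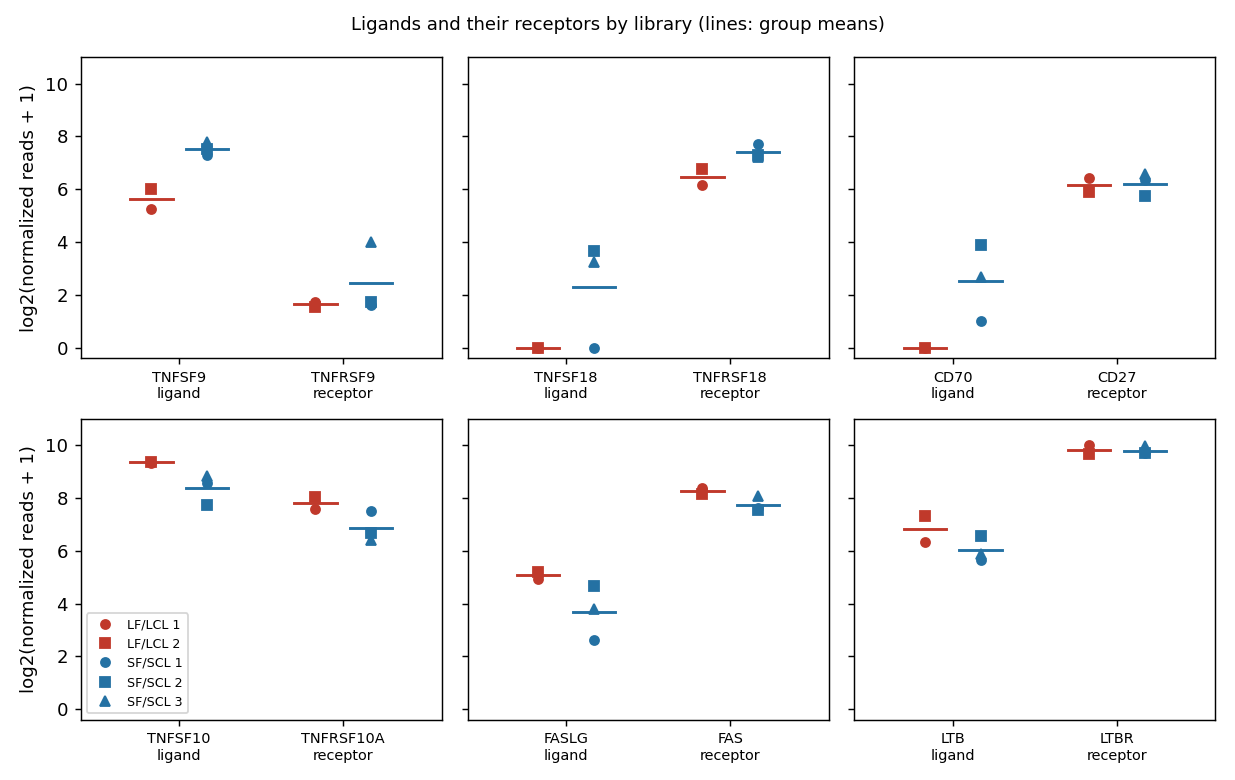
Ligands beside a receptor of each, in the 5 libraries, as log2 of normalized reads + 1; lines are group means of the log values. TNFSF18 and CD70 are at 0 in both LF/LCL libraries, and CD27 and LTBR overlap between the groups.

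Ligands were set beside their receptors to see whether both sides of a pair had the same order of group means. TNFSF10 and TNFRSF10A had log2 fold changes of 0.97 and 0.94, and FASLG and FAS of 1.37 and 0.50. TNFRSF10D, also listed as a receptor of TNFSF10, had a log2 fold change of only 0.19 and overlapped between the groups. TNFSF9 and TNFRSF9 both had the higher mean in SF/SCL (186 and 6.48, against 50.2 and 2.14 in LF/LCL). Most reads of TNFRSF9 came from SF/SCL replicate 3. TNFSF18 had reads only in SF/SCL, and TNFRSF18 had the higher mean there (170.7 against 89.97 in LF/LCL). In the pairs LTB with LTBR and TNF with TNFRSF1A, the ligand had a log2 fold change of 0.79 and 0.61 and the receptor of 0.03 and 0.12. CD70 had reads only in SF/SCL, while CD27 had means of 71.7 in LF/LCL and 75.5 in SF/SCL. Other pairs had opposite signs, with log2 fold changes of 0.61 for TNF and -0.39 for TNFRSF1B, and of 0.71 for TNFSF8 and -0.03 for TNFRSF8. In the pairs TNFSF14 with LTBR, CD40LG with CD40, TNFSF11 with TNFRSF11A and TNFSF13 with TNFRSF13B, both means were higher in LF/LCL. In TNFSF4 with TNFRSF4 both means were higher in SF/SCL, and EDA and EDAR had opposite orders. CD40LG, TNFSF11, TNFRSF13B, TNFSF4 and EDAR were among the members too low to be tested. No test was made of any pair.

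Markers of T and NK cells moved with the groups. Their 13 entries (12 symbols) summed to 1872 and 2164 normalized reads in LF/LCL and to between 1317 and 1383 in SF/SCL. The largest entry in every library was PTPRC, a marker of leukocytes in general. It held 690 and 816 of these reads in the LF/LCL cows, against 638, 459 and 575 in the SF/SCL cows. The sum, also the divisor used below, is thus not specific to T and NK cells. Of the 12 entries tested, all had higher means in LF/LCL and 9 did not overlap between the groups. With limma 5 had an unadjusted p under 0.05 (CD3E, GZMB, CD3D, LCK and PTPRC), with 0 after adjustment. Among all genes tested, 15% had LF/LCL higher without overlap, and 5.64% had an unadjusted limma p under 0.05 with LF/LCL higher. The marker list was also drawn up with earlier results of these data known. A second entry of GZMB was at 0 in all libraries. In whole tissue, fewer cells of a type and less RNA per cell cannot be told apart. Divided by this summed level (chosen with these values in view), FASLG came to 1.57% and 1.66% in LF/LCL and to 0.395%, 1.74% and 0.977% in SF/SCL, so that the groups overlapped, while a log2 difference of 0.78 between the group means of the logs remained. LTB came to 4.20% and 7.25% against 3.71%, 6.69% and 4.40%, a log2 difference of 0.20. TNFSF9, TNFRSF18 and TNFAIP8 had their higher means in SF/SCL, where the summed T and NK markers were lower. The part of T and NK cells in the values of FASLG, LTB, TNFSF9, TNFRSF18, TNFAIP8, TNFSF10 and TNFRSF10A was not tested.

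The 10 macrophage and myeloid markers summed to 2544 and 7025 normalized reads in LF/LCL and to between 2148 and 4813 in SF/SCL, which overlapped. Of these markers 0 had an unadjusted p under 0.05 with limma, against 11.5% of all genes tested. The 6 B and plasma cell entries found summed to 3644 and 4105 in LF/LCL and to between 1327 and 6598 in SF/SCL, with PAX5 at 0 in all libraries. The 5 endothelial markers, of which KDR had an unadjusted p under 0.05, summed to 3386 and 5372 in LF/LCL and to between 4384 and 6596 in SF/SCL. The 6 stromal fibroblast markers summed to 29064 and 71761 in LF/LCL and to between 18723 and 40568 in SF/SCL. Red cell markers ran from 16.1 to 507, with ALAS2 at 0.

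**Figure D4:**
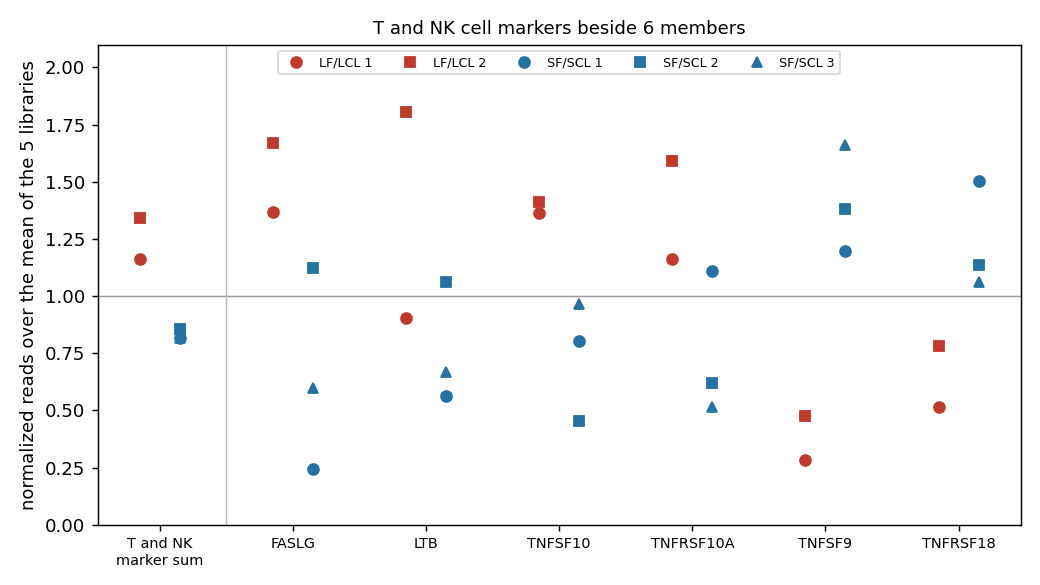
Summed T and NK cell markers and 6 members in each library, each divided by its mean over the 5 libraries. The marker sum, FASLG, TNFSF10 and TNFRSF10A are higher in both LF/LCL libraries, and TNFSF9 and TNFRSF18 are higher in the 3 SF/SCL libraries.

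Downstream of the receptors, 38 of 47 listed genes of caspase, ubiquitin, kinase and NF-kappaB signaling were found and tested. With limma the unadjusted p of 3 was under 0.05, and 0 passed after adjustment. LF/LCL had the higher mean in 2 of them and SF/SCL in 1. Without SF/SCL replicate 3 only 1 signaling gene had an unadjusted limma p under 0.05, against 9.47% of all genes in the same fit. The groups did not overlap in 13 of the 38 genes, against 30.1% of all genes tested, and 11.5% of all genes had an unadjusted p under 0.05. The list's share was thus close to that of all genes for overlap and lower for p. Its median log2 fold change was 0.06. TRAF3IP3, a TRAF3 interacting protein known from lymphocytes, had means of 159.98 ± 2.35 in LF/LCL and 103 ± 8.36 in SF/SCL. TRAF3IP2 (Act1), the adaptor of interleukin 17 receptors, had means of 1002 ± 21.5 and 1178 ± 30.2. MAPK8 and TRAF3IP1 followed with log2 fold changes of 0.22 and -0.19, neither with an unadjusted p under 0.05.

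Of 33 listed genes known as NF-kappaB targets, 26 were found and 21 entries were tested. With limma the unadjusted p of 5 was under 0.05, none of them after adjustment (0), whereas DESeq2 called CXCL10, SAA3 and IL6 (3). Among all genes tested the shares were 11.5% by the unadjusted limma p and 2.89% by DESeq2. The list was drawn up with earlier results of these data known, and the study itself named CXCL10 and SAA3 in processes enriched in the LF/LCL ampulla. No excess of target genes can thus be read from these counts. The median log2 fold change was -0.13, and the 5 genes did not share a direction. CXCL10, a chemokine also induced by interferon, had 423 and 598 normalized reads in the LF/LCL cows, against 190.3, 295 and 192 in the SF/SCL cows. SAA3, an acute phase protein, had means of 17149 ± 2284 in LF/LCL and 9106 ± 2365 in SF/SCL. IER3, an early response gene, had means of 203 ± 31.2 and 126 ± 16.5. IL1B had few reads and was higher in both LF/LCL libraries (means of 15.7 and 3.37). IL6 had 3.52 and 3.87 in the LF/LCL cows, against 10.4, 69.2 and 33.3 in the SF/SCL cows, the opposite order, with a log2 fold change of -2.68 ± 0.84 (SE) and an adjusted p of 0.345 by limma. Without SF/SCL replicate 1 the target genes with an unadjusted limma p under 0.05 numbered 8, against 10.1% of all genes in the same fit.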

How the data were processed

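Reads were paired-end from polyA libraries. The authors cleaned them with seqyClean, aligned them with TopHat2 2.0.8 and Bowtie2 2.1.0 to the UMD assembly of Bos taurus (masked), and counted uniquely mapped reads per Ensembl gene with HTSeq 0.5.4p2. Whether the counting used strand is not given in the sources used here. Of 53 member symbols matched in a RefSeq gene table of another Bos indicus assembly, 12 overlapped another gene there, and these are uncertain (EDA, EDA2R, LTA, LTBR, TNFAIP8L1, TNFRSF11B, TNFRSF1A, TNFSF18, TNFSF4, TNFSF8, TRAF3 and TRAF5). The deposited signal is the read count divided by 1 DESeq 1.12.1 size factor per library. Dividing by the value of 1 read gave whole reads (within 0.01 of a read) for 100% of nonzero values.

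Log2(value + 1) of the 15815 genes with a mean value over 5 was fitted with limma 3.58.1 (trend and robust), without covariates, two-sided, with Benjamini-Hochberg adjustment over all genes tested. A fold change on this scale understates that of low genes. The study used the negative binomial test of DESeq. Here limma was chosen as the main test because the deposited values are divided by a size factor, although a count test was possible on the recovered reads. The choice matters, since limma called 0 of the 15815 genes with an adjusted p under 0.05 and DESeq2 called 457. Alternatives were edgeR 4.0.16 and DESeq2 1.42.0 on the recovered reads, limma-voom, other pseudocounts, filters and scalings, and leaving out each library. The limma, edgeR and DESeq2 fits were tested on simulated data. P-values measure the spread between the cows sequenced.

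The members and lists were chosen with earlier results of these data known. Values in every library are given for members with an unadjusted p under 0.05, for those without overlap with an absolute log2 fold change of at least 0.5 and a mean of at least 20, and for the 3 highest means of each role. Up to 5 genes with the smallest p are named per downstream list. A gene of the signaling list is not reported here. Values by library of TNFRSF9, CD70, TNFSF18, TNFRSF8 and TNFAIP8L3 were added with the values in view.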

Additional observations from a re-analysis of the deposited data

How the results depend on the processing

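Over all alternatives run, limma and edgeR called 0 members with an adjusted p under 0.05, while DESeq2 called 1, TNFSF9, and the cause was not tested. With an SF/SCL library left out, the 6 members with an unadjusted p under 0.05 numbered from 3 (without replicate 1) to 9 (without replicate 3). The shares of all genes in these 2 fits were 10.1% and 9.47%. Under the alternatives that kept all libraries they numbered from 5 to 7, where the share of all genes ran from 10.5% to 12.7%. Those without overlap went from 13 to between 16 and 25 with a library left out, while the share of all genes without overlap went from 30.1% to between 41.2% and 57.1%, since fewer libraries make overlap rarer. The median log2 fold change of 0.0939 ran from 0.0587 to 0.194 (without LF/LCL replicate 2). The signaling genes with an unadjusted p under 0.05 went from 3 down to 1 without SF/SCL replicate 3 (9.47% of all genes). Without SF/SCL replicate 1 the target genes with such a p rose to 8 (10.1% of all genes). Some values near 0 turned sign, for which the cause was not tested. With scaling by library size TNFRSF21 went to -0.0264, TNFSF13 to -0.0116 and LTBR to -0.00383, while the median of all genes went from 0.01 to -0.03. With a library left out, FADD ran from -0.0638 to 0.227, LTBR from -0.133 to 0.198, TNFAIP2 from -0.415 to 0.556, TNFRSF21 from -0.44 to 0.46, TNFSF13 from -0.128 to 0.177 and TRAF4 from -0.231 to 0.0938. Where an LF/LCL library was left out, the lone library was assumed to vary like the others. No paired analysis was possible because each library came from a different cow and each cow was in only 1 group. Members with few reads are limited by depth.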

Other observations

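Some members varied more among cows of a group than between the groups. TNFRSF8 (CD30), a receptor of activated lymphocytes, had 8.21 and 45.5 normalized reads in the LF/LCL cows, against 61.3, 19.4 and 6.44 in the SF/SCL cows. TNFAIP8L3, a lipid transfer protein of the TNFAIP8 family, had 42.2 and 26.1 in the LF/LCL cows, against 65.5, 5.44 and 52.6 in the SF/SCL cows. Over the 46 tested members, SF/SCL replicate 2 held the lowest value in 16 and the highest in 3, and LF/LCL replicate 2 the highest in 14 and the lowest in 3.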
